A study of Mus musculus with 18 samples.

Results

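The 9 genes described here are interferon response genes: Irf7, Irf9, Stat2, Ifih1, Ddx58, Isg15, Ifit1, Ifit3 and Usp18. They are 9 of the 39017 gene identifiers in the deposited gene count tables, and they were found by their symbols. They had been chosen by their gene counts, with the values in these same libraries known, so their gene levels and fold changes are given as a description, without a test. The libraries hold RNA pulled down with ribosomes from mouse brain (TRAP, translating ribosome affinity purification), which the study's title assigns to layer II neurons of the entorhinal cortex, although the tissue label of each library reads hippocampus.

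The overexpression libraries come from 5 mice injected with a Ptbp1 vector carrying mCherry and 4 mice injected with a control vector carrying mCherry. The silencing libraries come from 4 mice injected with a Ptbp1 shRNA vector and 5 injected with a scrambled shRNA vector, both carrying mCherry. Each library holds both entorhinal cortices of 1 mouse, so all groups share the injection of an mCherry vector, and no uninjected mouse is among them. The submitters injected 5 mice per group and left out 1 control and 1 Ptbp1 shRNA mouse that lacked mCherry reads. Ptbp1 is an RNA-binding protein that represses exons in many transcripts. The labels give no mouse strain, age or sex, and do not name the promoter or cell type that carried the ribosome tag.

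Cells infected by a virus sense its RNA with helicases of the RIG-I family, among them Ifih1 (MDA5) and Ddx58 (RIG-I), and these sensors lead to the secretion of type I interferons. Interferon binds a receptor whose kinases phosphorylate Stat2, which joins Irf9 in a complex that binds a short DNA element, the interferon-stimulated response element, in front of its target genes. All 9 genes are known targets of this pathway. Irf7 amplifies it by driving more interferon transcription, the Ifit proteins bind viral RNA, Isg15 is a ubiquitin-like modifier, and Usp18 both removes Isg15 from proteins and blocks the interferon receptor. In the brain, neurons, astrocytes and microglia can all respond to type I interferon.

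The response element is shown first because it is the sequence that ties these genes to the pathway. RefSeq promoters (GRCm38.p6), from 250 bases before to 50 after the start, were found for 8 of the 9 genes. Both strands were searched for GAAANNGAAA, the core of the element, counting overlapping matches. It was found in 6 of the 8 (75%), against 28 of 87 other interferon pathway genes with a promoter (32.2%) and 1079 of all 27025 genes with one (3.99%). Irf7 and Irf9 had no match in this window. The stretches around the matches are given 5′ to 3′ on the strand of the gene, with the matches in capitals. They lie at chr10:128270248-128270315 (Stat2, + strand), chr2:62646206-62646233 (Ifih1, − strand), chr4:40239804-40239833 (Ddx58, − strand), chr4:156200845-156200926 (Isg15, − strand), chr19:34640755-34640843 (Ifit1, + strand) and chr19:34583343-34583446 (Ifit3, + strand).
Stat2: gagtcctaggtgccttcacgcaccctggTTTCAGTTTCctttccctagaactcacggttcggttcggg
Ifih1: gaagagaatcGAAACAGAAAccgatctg
Ddx58: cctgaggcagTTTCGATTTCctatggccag
Isg15: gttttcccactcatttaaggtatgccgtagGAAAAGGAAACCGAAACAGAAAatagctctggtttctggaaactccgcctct
Ifit1: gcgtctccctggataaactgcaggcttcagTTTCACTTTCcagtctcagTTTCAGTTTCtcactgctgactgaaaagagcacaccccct
Ifit3: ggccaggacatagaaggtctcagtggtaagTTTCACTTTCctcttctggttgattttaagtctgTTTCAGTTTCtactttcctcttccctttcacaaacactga
Isg15 held 3 overlapping matches, the first starting 78 bases before the start. Ifit1 and Ifit3, neighbours on chromosome 19, each held the same pair of elements in the same order, at -104 and -85 in Ifit1 and at -156 and -122 in Ifit3. The matches of Ifih1 and Ddx58 lay just past the start, at +33 and +3, and that of Stat2 at -222. A match is a run of letters and does not show that a protein bound there.

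The 18 libraries held 34339355 to 46544178 gene counts in silencing and 18288627 to 39056655 in overexpression. The spread between libraries was far wider in silencing: edgeR's biological coefficient of variation was 90.1% there and 22.3% in overexpression. In silencing, 1.24% to 8.30% of the exon bins that are well covered over the series had no count in a library, against 0.0213% to 0.0551% in overexpression. Ptbp1 was at 118 to 158 CPM (counts scaled to a common library total) in Ptbp1 overexpression libraries and at 9.96 to 17.2 CPM in control libraries. It was at 0.101 to 13.1 CPM in Ptbp1 shRNA libraries and at 0.349 to 9.11 CPM in scrambled shRNA libraries, so that no fall of Ptbp1 was measured under the label of silencing. The 11 markers of superficial excitatory neurons were counted in every library and summed to 14890 to 18952 CPM in Ptbp1 overexpression libraries and 17839 to 22487 CPM in control libraries. They summed to 31613 to 64378 CPM with the Ptbp1 shRNA and 58798 to 73427 CPM with the scrambled shRNA, and 3 of the 4 Ptbp1 shRNA libraries lay below every scrambled one. The 6 hippocampal markers, of which 5 were fitted, summed to 394 to 571 CPM with the Ptbp1 shRNA and 798 to 1514 CPM with the scrambled shRNA, without overlap. The lower sum was not shared by all, as 2 of the 5 were higher with the Ptbp1 shRNA (median log2 fold change -0.21, 0 called by edgeR). In overexpression the 6 markers summed to 491 to 577 CPM with Ptbp1 and 525 to 657 CPM in controls. There 3 of the 5 fitted were higher with Ptbp1 (median log2 fold change 0.15). The part of these markers in the interferon values was not tested. Markers of microglia summed to 1.43 to 26.3 CPM over all libraries.

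In overexpression, all 9 genes were higher with Ptbp1 than with the control vector. Their log2 fold changes ran from 0.63 (Stat2) to 2.14 (Usp18), with a median of 1.26, beside a median of -8.0e-05 over all 16480 genes fitted, of which 50% were higher. A log2 fold change above 1 was seen in 7 of the 9 genes, against 1.71% of all genes fitted. The 2 groups overlapped for each of the 9 genes. For 0 of them did every Ptbp1 overexpression library exceed every control library, as 1.13% of all genes fitted did. Since these counts chose the genes, nothing is read from these shares. All 9 passed the filter on low counts in both experiments.

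**Figure D1:**
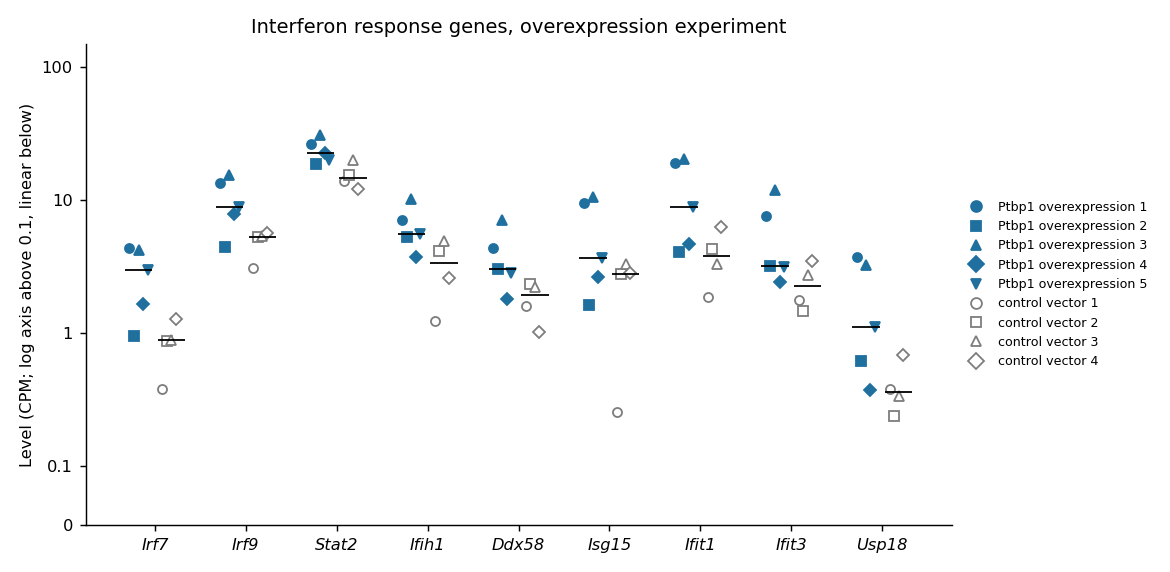
Level of each of the 9 genes in CPM (log axis above 0.1) in each library of the overexpression experiment: 5 Ptbp1 overexpression libraries (filled) left of 4 control libraries (open), with 1 marker shape per replicate number and a line at each median. Ptbp1 overexpression libraries 1 (circle) and 3 (upward triangle) are the highest pair for all 9 genes.

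Among the transcription factors, Irf7 (ENSMUSG00000025498, chr7:141262706-141266481, build mm10 with GENCODE gene bounds, as for the other genes) had 4.34, 0.952, 4.23, 1.65 and 2.96 CPM in the 5 Ptbp1 overexpression libraries, against 0.381, 0.871, 0.890 and 1.28 CPM in the 4 controls. Of the libraries with Ptbp1, 4 stood above all controls, and replicate 2 lay within their range. The means were 2.83 ± 1.51 and 0.856 ± 0.369 CPM (SD, n = 5 and 4), a log2 fold change of 1.72 ± 0.48 (SE).

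Irf9 (ENSMUSG00000002325, chr14:55603571-55610030), the DNA-binding part of the Stat complex, had 13.5, 4.45, 15.5, 7.86 and 8.88 CPM with Ptbp1, against 3.09, 5.27, 5.39 and 5.64 CPM in controls. Again 4 of 5 libraries exceeded every control, and replicate 2 did not. Its log2 fold change was 1.05 ± 0.32 (SE). Irf9 shares exon bases on the same strand with Rnf31, so its counts are uncertain.

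Stat2 (ENSMUSG00000040033, chr10:128270559-128292849) was the most even of the 9 genes. It had 26.7, 18.8, 30.9, 22.7 and 19.97 CPM with Ptbp1, against 13.9, 15.6, 19.9 and 12.1 CPM in controls. Of the 5 libraries, 4 exceeded the highest control, and replicate 2 lay just under it. The means of 23.8 ± 4.96 and 15.4 ± 3.34 CPM (SD, n = 5 and 4) gave a log2 fold change of 0.63 ± 0.18 (SE).

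The RNA sensors were about 2-fold higher. Ifih1 (ENSMUSG00000026896, chr2:62595798-62646255), which binds long double-stranded RNA, had 7.14, 5.31, 10.3, 3.72 and 5.61 CPM with Ptbp1, against 1.23, 4.16, 4.89 and 2.61 CPM in controls. Replicate 4 was the 1 library with Ptbp1 inside the range of the controls. Ddx58 (ENSMUSG00000040296, chr4:40203773-40239828), which binds RNA with a triphosphate end, had 4.34, 3.01, 7.13, 1.82 and 2.83 CPM with Ptbp1, against 1.61, 2.34, 2.22 and 1.03 CPM in controls, and replicate 4 was again within the control range. The log2 fold changes were 1.00 ± 0.37 for Ifih1 and 1.09 ± 0.39 for Ddx58 (SE). Ifih1 averaged 6.41 ± 2.47 CPM with Ptbp1 and 3.22 ± 1.64 CPM in controls, and Ddx58 3.82 ± 2.05 CPM with Ptbp1 and 1.799 ± 0.606 CPM in controls (SD, n = 5 and 4).

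Among the effectors, Isg15 (ENSMUSG00000035692, chr4:156199424-156200818) had 9.60, 1.63, 10.6, 2.65 and 3.67 CPM with Ptbp1, against 0.254, 2.77, 3.34 and 2.82 CPM in controls. Replicates 1 and 3 stood far above the rest, replicate 5 slightly above the highest control, and control 1 far below. The log2 fold change of 1.30 ± 0.65 (SE) had a 95% interval of -0.10 to 2.71. Since these counts chose the 9 genes, their intervals describe spread and are not read as tests.

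Ifit1 (ENSMUSG00000034459, chr19:34640871-34650009) had 18.9, 4.05, 20.5, 4.67 and 8.83 CPM with Ptbp1, against 1.86, 4.32, 3.34 and 6.32 CPM in controls. Of the libraries with Ptbp1, 3 exceeded all controls, and replicates 2 and 4 lay within their range. Its log2 fold change was 1.52 ± 0.51 (SE). Ifit3 (ENSMUSG00000074896, chr19:34583531-34588731) had 7.60, 3.19, 11.9, 2.44 and 3.14 CPM with Ptbp1, against 1.78, 1.46, 2.73 and 3.50 CPM in controls. Here replicates 1 and 3 alone exceeded the highest control, and the log2 fold change was 1.26 ± 0.46 (SE). The Ifit3 counts are uncertain, since its transcript matches that of Ifit3b at 98.0% of 1697 aligned bases, against 60.4% with Ifit1.

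Usp18 (ENSMUSG00000030107, chr6:121245906-121270917), the inhibitor of the receptor, had the highest fold change of the 9 genes. It had 3.73, 0.614, 3.28, 0.372 and 1.10 CPM with Ptbp1, against 0.381, 0.238, 0.334 and 0.684 CPM in controls. These values rest on few counts: 9 to 153 per library with Ptbp1 and 6 to 16 in controls. The log2 fold change was 2.14 ± 0.68 (SE).

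The same libraries led throughout. Ptbp1 overexpression libraries 1 and 3 were the 2 highest of the 9 libraries for all 9 genes, library 3 being highest for 7 and library 1 for 2. The 9 genes summed to 95.8, 42.0, 114, 47.9 and 57.0 CPM in the 5 Ptbp1 overexpression libraries, against 24.5, 37.0, 43.0 and 36.0 CPM in the 4 controls. Library 2 with Ptbp1 thus lay below control 3 in this sum, and the other 4 above all controls. Without libraries 1 and 3 the median log2 fold change of the 9 genes was 0.54, and each of the 9 stayed above 0, from 0.20 (Isg15) to 1.10 (Irf7). Leaving out single libraries gave medians of 0.83 (without Ptbp1 overexpression 3) to 1.45.

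Libraries 1 and 3 were also the highest for 44 of 79 other pathway genes fitted (55.7%), against 26.8% of all genes fitted. Most of these were highest in library 3 (31 genes, 39.2%, against 13.8% of all genes fitted). Library 1 was highest for 13 (16.5%), near its share of all genes fitted (13.0%). Over the 9 libraries, after each group's mean was taken off, the 36 pairs among the 9 genes correlated with a median r of 0.68 (range 0.46 to 0.96). These points share libraries, depth and the filter, and are a description. The genes most like the mean of the 9 on this measure were Tomm22 (r = 0.99), Smim14, Naa50, Nek11 and Nucks1 among 13366 candidates over 9 libraries. Of the 20 most alike, 4 were on the pathway list, which holds 49 of the candidates. Tomm22, a part of the import pore of mitochondria, differed by a log2 fold change of only -0.06 between the groups, so the likeness is one of deviations within groups.

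Of 13 microglial markers listed, 8 were fitted, and 7 of these had higher levels with Ptbp1, 0 by the adjusted test. They summed to 12.7, 23.7, 23.2, 16.3 and 20.2 CPM in Ptbp1 overexpression libraries 1 to 5, against 13.0, 16.3, 16.8 and 13.7 CPM in controls, and no marker was at 0 in every library of a group. Library 1, with the second highest sum of the 9 genes, had the lowest microglial sum of all, whereas library 3 had a high one. Markers of blood leukocytes summed to 1.95, 3.13, 2.42, 1.24 and 0.353 CPM with Ptbp1, against 1.31, 1.66, 2.11 and 1.92 CPM in controls. Markers of reactive astrocytes summed to 6.67 to 21.6 CPM with Ptbp1 and to 4.51 to 11.8 CPM in controls, and all 3 fitted of 6 listed were higher, 0 by the adjusted test. The part of these cells in the levels of the 9 genes was not tested, and in such RNA more cells of a type cannot be told apart from more RNA per cell.

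In silencing the 9 genes did not move together. With the Ptbp1 shRNA, 2 were higher (Usp18 and Irf7) and 7 lower than with the scrambled shRNA, and the median log2 fold change was -0.37, beside 0.03 over all 14656 genes fitted, of which 51.2% were higher. This tally depends on single libraries, since the signs of Irf7, Ifih1, Ddx58 and Isg15 turned when 1 library was left out. Most of the 95% intervals spanned several log2 units. In 0 of the 9 genes did the groups fail to overlap, which 2.39% of all genes fitted did with the Ptbp1 shRNA higher and 2.45% with it lower. Nothing is read from these shares either.

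**Figure D2:**
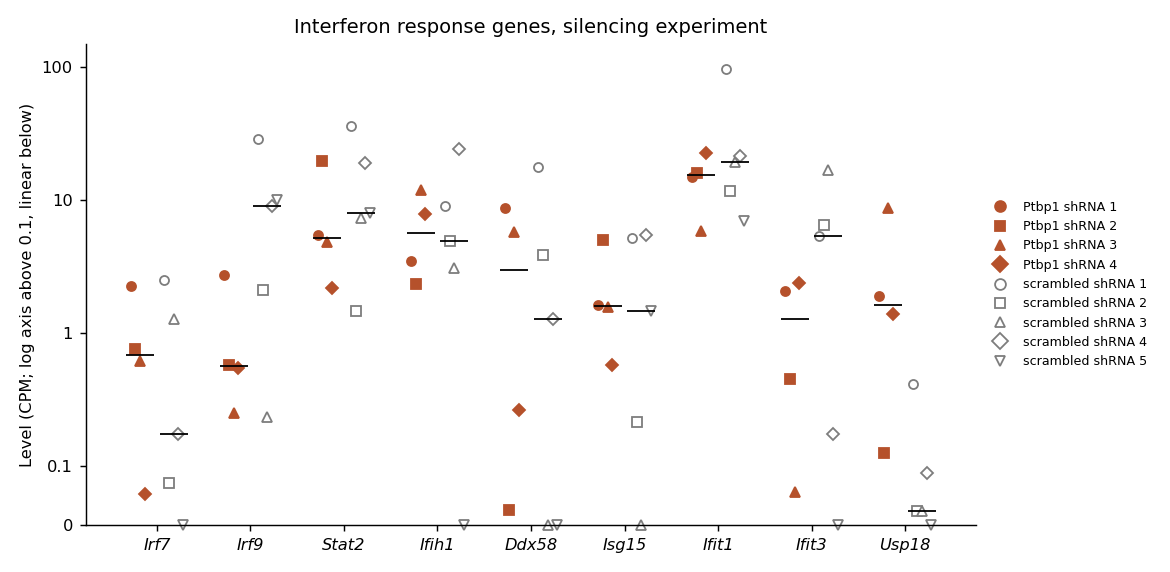
Level of each of the 9 genes in CPM (log axis above 0.1, linear below, so that 0 can be shown) in each library of the silencing experiment: 4 Ptbp1 shRNA libraries (filled) left of 5 scrambled shRNA libraries (open), with a line at each median. Scrambled shRNA library 1 (circle) is the highest of all for 5 genes, and library 5 (downward triangle) lies at 0 for 5.

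Irf9 had the most negative fold change. It was at 2.73, 0.579, 0.252 and 0.549 CPM in Ptbp1 shRNA libraries, against 28.8, 2.12, 0.232, 9.02 and 9.96 CPM in scrambled shRNA libraries. Scrambled library 3 was the lowest of the 9, so the groups overlapped. The log2 fold change was -3.28 ± 1.27 (SE), and it was -2.37 without scrambled library 1. Stat2 had 5.51, 19.9, 4.88 and 2.17 CPM with the Ptbp1 shRNA, against 36.1, 1.45, 7.34, 19.0 and 8.04 CPM with the scrambled shRNA, and both the highest and the lowest value were scrambled libraries. Its log2 fold change was -0.83 ± 0.89 (SE).

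The 2 sensors had their highest values in scrambled libraries, and values at 0 there as well. Ifih1 had 3.47, 2.34, 11.9 and 7.84 CPM with the Ptbp1 shRNA, against 9.002, 4.91, 3.11, 24.2 and 0 CPM with the scrambled shRNA (log2 fold change -0.37 ± 1.20, SE). Ddx58 had 8.69, 0.0252, 5.72 and 0.261 CPM with the Ptbp1 shRNA, against 17.9, 3.84, 0, 1.29 and 0 CPM with the scrambled shRNA (log2 fold change -0.33 ± 1.83, SE). The log2 fold change of Ddx58 was 1.52 without scrambled library 1, and that of Ifih1 was 0.59 without scrambled library 4. By limma they were 1.49 and 0.18.

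Among the effectors, scrambled library 1 stood far above the rest for Ifit1. It had 14.9, 16.0, 5.91 and 22.8 CPM with the Ptbp1 shRNA, against 97.7, 11.7, 19.5, 21.6 and 6.97 CPM with the scrambled shRNA. Its log2 fold change of -1.08 ± 0.73 (SE) was -0.01 without scrambled library 1. Ifit3 had 2.08, 0.453, 0.0560 and 2.38 CPM with the Ptbp1 shRNA, against 5.41, 6.54, 16.9, 0.174 and 0 CPM with the scrambled shRNA (log2 fold change -2.22 ± 1.62, SE). Isg15 had 1.63, 5.06, 1.57 and 0.575 CPM with the Ptbp1 shRNA, against 5.18, 0.215, 0, 5.45 and 1.46 CPM with the scrambled shRNA (log2 fold change -0.16 ± 1.45, SE). For Isg15 it was -0.98 without Ptbp1 shRNA library 2, 0.37 without scrambled library 4 and 1.51 by limma, so its sign is not settled.

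Usp18 had the highest fold change in silencing too, at 1.89, 0.126, 8.80 and 1.39 CPM with the Ptbp1 shRNA, against 0.416, 0.0239, 0.0232, 0.0872 and 0 CPM with the scrambled shRNA. Of the 4 libraries, 3 exceeded all scrambled libraries. The log2 fold change was 4.75 ± 1.63 (SE), and 3.32 without Ptbp1 shRNA library 3. Irf7 had 2.27, 0.755, 0.617 and 0.0523 CPM with the Ptbp1 shRNA, against 2.498, 0.0716, 1.28, 0.174 and 0 CPM with the scrambled shRNA (log2 fold change 0.20 ± 1.53, SE). For Irf7 it was -0.76 without Ptbp1 shRNA library 1 and 1.27 without scrambled library 1, so its sign is not settled either.

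A count of 0 at this depth allows up to 3 counts, which is 0.0973 CPM in scrambled library 5 and 0.0697 CPM in scrambled library 3. Scrambled library 5 had no count for 5 of the 9 genes and scrambled library 3 for 2. The 9 genes summed to 43.2, 45.2, 39.7 and 38.0 CPM in the 4 Ptbp1 shRNA libraries, against 203, 30.9, 48.5, 80.9 and 26.4 CPM in the 5 scrambled libraries. Scrambled libraries 1 and 4 were thus above all Ptbp1 shRNA libraries, and scrambled libraries 2 and 5 below them. In scrambled library 1 the microglial sum was 19.0 CPM, against 24.8, 7.76, 8.39 and 26.3 CPM in scrambled libraries 2 to 5, where C1qa, C1qc, Trem2 and Tyrobp were at 0 in all 5. Pairs of the 9 genes correlated with a median r of 0.25 within groups, with 29 of 36 above 0. The 5 genes most like their mean were Gm26643 (r = 0.99), Rad54l2, Sik1, Kri1 and Iffo2 among 12347 candidates over 9 libraries. Of the 20 most alike, 0 were on the pathway list, which holds only 46 of the candidates, so nothing is read from the 0.

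**Figure D3:**
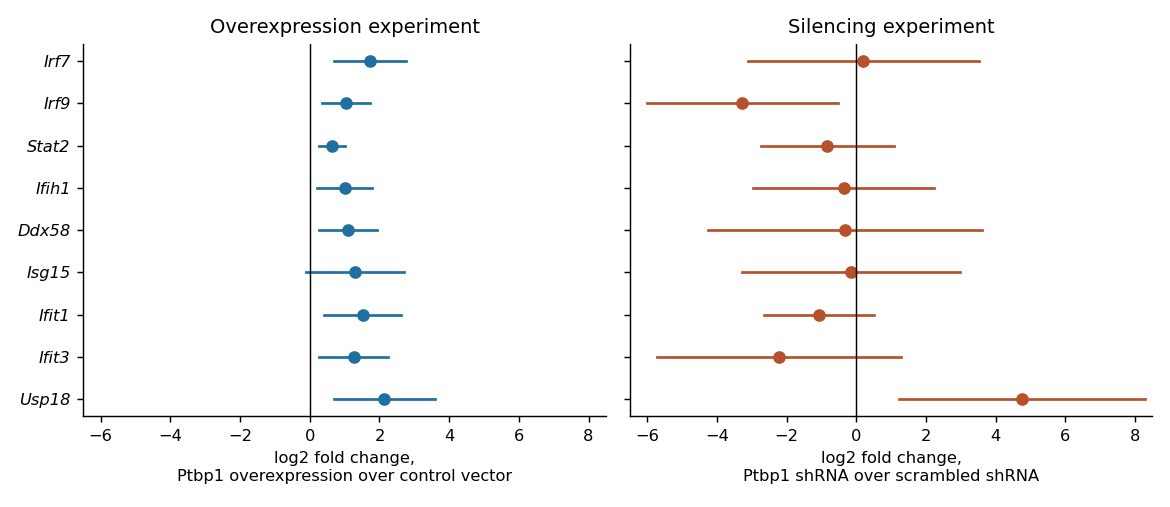
Log2 fold change (point) with its 95% interval (line) of each of the 9 genes, Ptbp1 overexpression over control vector on the left and Ptbp1 shRNA over scrambled shRNA on the right. All 9 points lie above 0 in overexpression, from 0.63 to 2.14, and 7 of 9 lie below 0 in silencing, where the intervals are wider.

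The exon bins, stretches of exon counted separately, show how many places in a gene the counts came from. In the median silencing library the counts of Irf7, Usp18 and Stat2 came from fewer bins than in overexpression. Irf7 had counts in a median of 1 of its 32 bins per silencing library, against 14 in overexpression libraries, and Usp18 in 1 of 11, against 5. Stat2 had counts in 8 of 25 bins in silencing and in 24 in overexpression, but in 22 in scrambled library 1. Ifih1 had counts in a median of 14 of 24 bins in scrambled libraries and 7 in Ptbp1 shRNA libraries. In overexpression it had them in 14.5 in controls and 18 with Ptbp1. Few counts can fill only few bins, and Usp18 had at most 16 gene counts in a scrambled library. Some silencing libraries with more counts also filled few bins. Irf7 had 57 bin counts in 1 bin in Ptbp1 shRNA library 1, and 23 in 14 bins in overexpression control 2. Stat2 had 443 bin counts in 7 bins in Ptbp1 shRNA library 2, and 271 in 25 bins in overexpression control 4. In scrambled library 1, Stat2 had 1565 in 22 bins. These are facts of 2 experiments with separate controls and were not tested.

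The high value of Usp18 in Ptbp1 shRNA library 3 came from a single bin. All of its 171 bin counts lay in bin 3, 97 coding bases at chr6:121253762-121253858 (mm10), and 10 other bins had none. Library 4 of the same group had all 27 of its bin counts there too. Library 1, by contrast, had 71 bin counts over 8 of the 11 bins. In the overexpression experiment the Usp18 counts of libraries 1 and 3 with Ptbp1 were spread over 10 and 11 of 11 bins, with at most 22.8% and 36.4% in 1 bin.

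Irf7 rested on a single bin in silencing too. In each of the 4 Ptbp1 shRNA libraries, all bin counts (57, 15, 13 and 1) lay in bin 1, a noncoding stretch of 477 bases at chr7:141262706-141263182 that holds the 3′ end. Of these bases, 45 also belong to the last exon of Phrf1 on the other strand. Outside this bin, the Ptbp1 shRNA libraries had 0 Irf7 counts, and the scrambled libraries 0, 6, 0, 9 and 0. In overexpression, the counts outside it were 233, 11, 131, 35 and 75 with Ptbp1, against 0, 21, 19 and 24 in controls. Scaled to the total bin counts of each library (counts per 1000000 bin counts) these were 8.19, 0.469, 8.79, 1.99 and 4.59 with Ptbp1, against 0, 1.10, 1.44 and 1.43 in controls. Outside the shared bin, library 2 with Ptbp1 thus lay below 3 of the 4 controls, and the other 4 stood above all controls.

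**Figure D4:**
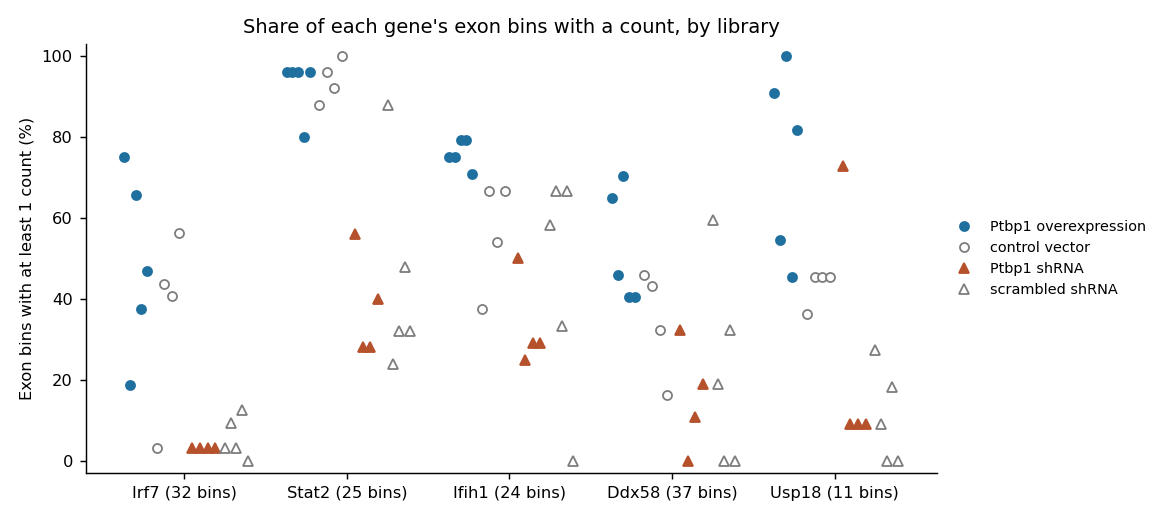
Share of each gene's exon bins that had at least 1 count (y axis, percent), with 1 point per library, for the 5 genes with more than 5 bins of their own: from left to right in each gene, Ptbp1 overexpression and control (circles), Ptbp1 shRNA and scrambled shRNA (triangles). Irf7 has counts in at most 4 of its 32 bins in the silencing libraries and in up to 24 in the overexpression libraries.

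The use of single exon bins relative to the rest of their gene was tested, since gene counts do not fix it. In overexpression, 49 bins of Ifih1, Isg15, Stat2 and the joined identifier of Irf9 and Rnf31 were fitted, and edgeR's diffSpliceDGE called 0 (background 0.034% of 117580 bins), with 2 at an unadjusted p under 0.05 and 0 called by limma. In silencing, 9 bins of Ifih1 and Stat2 were fitted, with 0 called (background 0.0012% of 83164 bins), 1 at an unadjusted p under 0.05 and 0 called by limma. Bins of the other 5 genes did not pass the filters in either experiment.

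Levels per kilobase of exon allow the genes to be ordered. In Ptbp1 overexpression libraries the order of the mean CPM per kb was Isg15 (7.46 ± 5.52), Stat2 (5.41 ± 1.13), Ifit1 (4.29 ± 2.95), Ifit3 (3.24 ± 2.33), Irf9 (1.86 ± 0.827), Usp18 (1.03 ± 0.885), Irf7 (0.936 ± 0.501), Ifih1 (0.785 ± 0.303) and Ddx58 (0.543 ± 0.291) (SD, n = 5). In control libraries it was Stat2 (3.50 ± 0.759), Isg15 (3.04 ± 1.83), Ifit1 (1.49 ± 0.704), Ifit3 (1.36 ± 0.531), Irf9 (0.900 ± 0.219), Ifih1 (0.395 ± 0.200), Irf7 (0.283 ± 0.122), Ddx58 (0.255 ± 0.0860) and Usp18 (0.231 ± 0.109) (SD, n = 4). Each neighbouring pair overlapped in range, in both groups. In silencing, Ifit1 led both groups, at 5.61 ± 2.61 CPM per kb with the Ptbp1 shRNA and 11.9 ± 14.1 CPM per kb with the scrambled shRNA (SD, n = 4 and 5), and Usp18, the fourth highest with the Ptbp1 shRNA (1.72 ± 2.20), was the lowest with the scrambled shRNA (0.0622 ± 0.0984).

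The 9 genes varied more between libraries of a group than the typical gene. Their median coefficient of variation was 53.7% in Ptbp1 overexpression and 43.1% in control libraries, against 17.6% and 16.2% over all genes fitted, and 98.3% with the Ptbp1 shRNA and 119% with the scrambled shRNA, against 60.8% and 56.3%. They were also lower than the typical gene: their median level was 5.66 CPM in Ptbp1 overexpression and 2.37 CPM in control libraries, against 13.7 and 13.8 CPM over all genes fitted.

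The rest of the interferon pathway was described from 108 other genes in 10 lists by role. In overexpression 79 were fitted, of which 57 were higher with Ptbp1 and 22 lower, with a median log2 fold change of 0.38. None of the 79 passed edgeR's quasi-likelihood test at an adjusted p of 0.05, which 7 of 16480 genes did (0.0425%), and DESeq2 and limma also called 0 of them. At an unadjusted p under 0.05, 15 were higher and 1 (Il10rb) lower, against 2.79% and 1.99% of all genes fitted. The lists were chosen with earlier results of these data known, and their genes share the same libraries, so nothing is read from these counts.

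By role, the antiviral effectors were mostly on the side of Ptbp1, with 29 of 33 higher and a median log2 fold change of 0.74. So were the GTPases induced by interferon gamma (7 of 7, median 1.04) and the enzymes that attach Isg15 (3 of 3, median 0.68). Of the antigen presentation genes 8 of 10 were higher (median 0.38). Without Ptbp1 overexpression libraries 1 and 3 these medians were lower: 0.31 for the effectors (26 of 32 higher), 0.22 for the GTPases (5 of 7), 0.32 for the Isg15 enzymes (2 of 2) and 0.09 for antigen presentation (6 of 10), and 0.14 over all 77 pathway genes fitted then. The receptors and kinases (3 of 9 higher with all libraries, median -0.13), the other sensors and adaptors (4 of 10, median -0.13) and the other interferon regulatory factors (2 of 5, median -0.01) were not mostly higher. Without libraries 1 and 3 the receptors and kinases stood at 6 of 9 (median 0.02), the sensors and adaptors at 5 of 10 (median -0.01) and the regulatory factors at 2 of 5 (median -0.01). The regulatory factors stood at 4 of 5 by limma (median 0.05) and without control library 1 (median 0.10). By limma the medians were 0.67 for the effectors (27 of 33), 0.70 for the GTPases (7 of 7) and 0.44 for the Isg15 enzymes (3 of 3). They were 0.18 for antigen presentation (8 of 10) and 0.22 over all 79 genes. Interferons themselves were at or near 0: none of the 10 ligand genes was fitted, 8 of them had no count in any overexpression library, and all 10 had none in any silencing library. The 4 chemokines were too low to be fitted.

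The 5 pathway genes with the smallest p in overexpression did not pass the adjusted test. Rnf213, a large ubiquitin ligase, was at 7.91 ± 3.48 CPM with Ptbp1 and 3.41 ± 1.34 CPM in controls (SD, n = 5 and 4). Its log2 fold change was 1.21 ± 0.32 (SE; edgeR adjusted p = 0.678). Eif2ak2, the kinase PKR that halts translation on double-stranded RNA, had 14.1, 6.66, 15.9, 6.62 and 10.5 CPM with Ptbp1, against 3.05, 5.78, 5.34 and 6.32 CPM in controls (log2 fold change 1.07 ± 0.30 SE, edgeR adjusted p = 0.678). It was the 1 pathway gene of 79 with all 5 libraries above every control, which 1.13% of all genes fitted also showed. Nothing is read from this count. The other 3 were Dtx3l (0.89 ± 0.26), Xaf1 (1.13 ± 0.35) and Pml (0.56 ± 0.18 on the log2 scale, SE), with edgeR adjusted p of 0.700 to 0.779. Dtx3l shares exon bases with Parp9, and Rnf213, Eif2ak2 and Pml with noncoding genes, so these counts are uncertain.

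The most abundant pathway genes had fold changes near 0. Jak1, a kinase of the interferon receptors, was at 177 ± 17.3 CPM with Ptbp1 and 182 ± 13.2 CPM in controls (log2 fold change -0.04, 95% interval -0.24 to 0.15). Adar, an RNA-editing enzyme, was at 118 ± 7.32 CPM with Ptbp1 and 111 ± 4.14 CPM in controls (0.09, interval -0.08 to 0.25). Pias1, a SUMO ligase, was at 57.5 ± 5.49 CPM with Ptbp1 and 53.7 ± 1.92 CPM in controls (0.10, interval -0.10 to 0.30; all SD, n = 5 and 4). Jak1 shares exon bases with Raver2 and Adar with Chrnb2, so the counts of Jak1 and Adar are uncertain too.

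**Figure D5:**
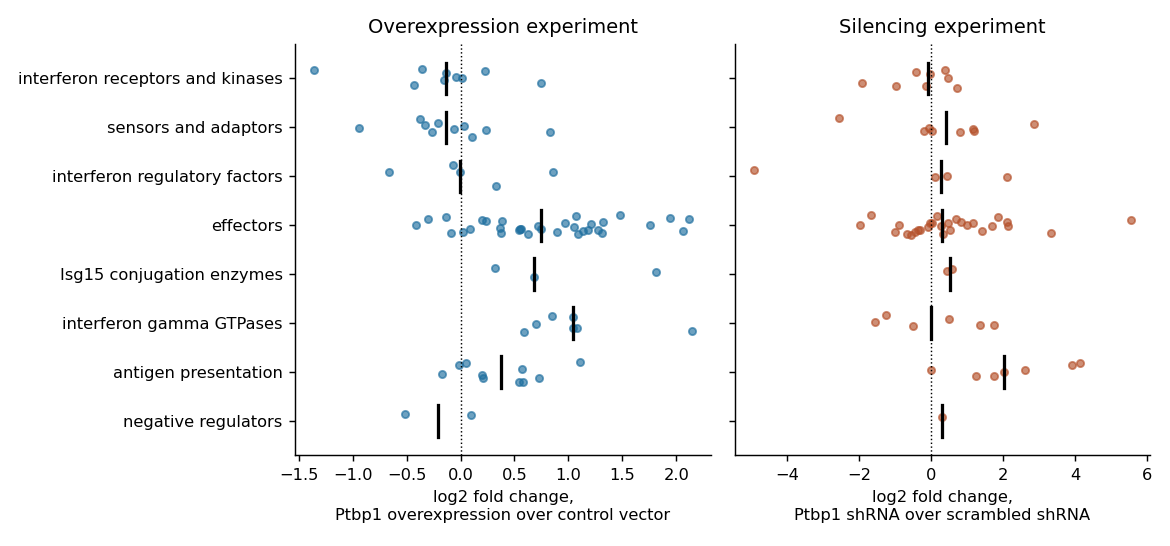
Log2 fold change of each fitted pathway gene outside the 9 (1 point per gene, with vertical jitter), by role list, with the list's median as a black line: Ptbp1 overexpression over control vector on the left and Ptbp1 shRNA over scrambled shRNA on the right, on different x scales. In overexpression, 29 of 33 effectors and 7 of 7 GTPases lie right of 0.

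In silencing, 64 pathway genes were fitted, 40 higher and 24 lower with the Ptbp1 shRNA, with a median log2 fold change of 0.41. edgeR called 0 of them, as it called 0% of all 14656 genes. At an unadjusted p under 0.05 there were 6 higher and 1 lower, against 5.76% and 5.42% of all genes. As in overexpression, nothing is read from these counts, since the lists were chosen with earlier results known. DESeq2 called 3 (H2-D1, Ifit2 and Lgals3bp), and limma 0. Both tools also called more of all genes than edgeR did (last section), so nothing is read from the 3. Among antigen presentation genes, 6 of 7 were higher (median 2.02), and among effectors 17 of 28 (median 0.30). Without Ptbp1 shRNA library 2 and scrambled library 5, the least evenly covered, the effectors stood at 13 of 28 (median -0.06) and antigen presentation at 6 of 7 (median 1.71). By limma the effectors stood at 23 of 28 (median 1.10), antigen presentation at 6 of 7 (median 2.52) and all pathway genes at 46 of 64 (median 0.70), so the count of effectors differs between tools.

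Markers of other cells differed between the same libraries. The 8 blood leukocyte markers, of which 0 were fitted, summed to 1.70, 3.25, 5.27 and 0 CPM with the Ptbp1 shRNA, against 0.234, 0.787, 0, 0.218 and 0 CPM with the scrambled shRNA; Cd3e and Cd8a, markers of T cells, had no count in either group. The 8 vessel markers summed to 0.233, 11.0, 5.35 and 0.288 CPM with the Ptbp1 shRNA, against 0.650, 2.31, 0.325, 3.14 and 0.162 CPM with the scrambled shRNA. Both vessel markers that were fitted were higher with the Ptbp1 shRNA (median log2 fold change 0.82), and Cldn5 and Ly6c1 had no count in either group. The 6 markers of reactive astrocytes summed to 21.7, 0.151, 37.9 and 10.7 CPM with the Ptbp1 shRNA, against 0.572, 6.63, 10.4, 14.1 and 0 CPM with the scrambled shRNA, and 3 of 3 fitted were higher (median log2 fold change 1.74), with 0 called by edgeR. Ptbp1 shRNA libraries 2 and 3, which had the highest leukocyte and vessel sums, also had the highest values of H2-D1 and Lgals3bp. The part of these cells in the pathway values was not tested.

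The gene with the smallest p was Lgals3bp, a secreted lectin-binding protein, at 1.78, 28.5, 40.9 and 2.22 CPM with the Ptbp1 shRNA, against 0.416, 1.10, 0.0697, 0.240 and 0.0973 CPM with the scrambled shRNA (log2 fold change 5.56 ± 1.21 SE, edgeR adjusted p = 0.118). All 4 libraries exceeded every scrambled library, as they did for Ifit2, a relative of Ifit1, at 27.5 ± 14.3 CPM with the Ptbp1 shRNA and 7.56 ± 4.93 CPM with the scrambled shRNA (SD, n = 4 and 5). These were 2 of the 64 pathway genes fitted, against 2.39% of all genes fitted, and nothing is read from this count. The log2 fold change of Ifit2 was 1.86 (edgeR adjusted p = 0.248). H2-D1, a heavy chain of MHC class I, had 4.83, 24.0, 10.8 and 0.575 CPM with the Ptbp1 shRNA, against 0.780, 0.0954, 0.744, 1.13 and 0.0649 CPM with the scrambled shRNA (log2 fold change 4.14, edgeR adjusted p = 0.219). Rnf213 averaged 23.04 ± 6.67 CPM with the Ptbp1 shRNA and 7.11 ± 5.75 CPM with the scrambled shRNA (SD), and its log2 fold change was 1.70 (edgeR adjusted p = 0.382).

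Irf3, which turns on interferon genes once the sensors signal, was the 1 pathway gene whose Ptbp1 shRNA libraries all lay below the scrambled ones, at 0.0848, 0, 0.140 and 0 CPM with the Ptbp1 shRNA, against 0.702, 0.239, 1.65, 1.77 and 4.74 CPM with the scrambled shRNA (log2 fold change -4.94, edgeR adjusted p = 0.280). This was 1 of the 64 pathway genes fitted, against 2.45% of all genes fitted. Irf3 overlaps Bcl2l12, so its counts are uncertain. The abundant genes Jak1 (log2 fold change -0.14), B2m (-0.02) and Pias1 (0.30) had 95% intervals that include 0.

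The 2 responses were set against each other in a fit of all 18 libraries, since they share no library. Of 88 other pathway genes fitted, edgeR called 0 as different between the responses, against 0.225% of 17779 genes. At an unadjusted p under 0.05 there were 10, and DESeq2 called 5. The 0.225% does not apply to these 2 counts, whose shares over all genes are not given, so nothing is read from them. The smallest p was that of Lgals3bp, whose log2 fold change was 5.56 in silencing and 0.20 in overexpression (edgeR adjusted p = 0.0637). For the 9 genes themselves the 2 fold changes are given side by side without a test. With all libraries they were of opposite sign for 7 genes, a tally that depends on single libraries because the silencing signs of Ifih1, Ddx58 and Isg15 turned when 1 was left out, as did that of Irf7. Examples are Irf9 at -3.28 in silencing and 1.05 in overexpression and Ifit1 at -1.08 (-0.01 without scrambled library 1) and 1.52. Both were above 0 for Usp18, at 4.75 and 2.14, and for Irf7, at 0.20 and 1.72.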

How the data were processed

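The authors deposited raw gene counts in 1 table per experiment and raw exon bin counts (DEXSeq format) in 1 file per library, all as whole numbers without normalization. The submitters' processing notes name STAR 2.5.3a, HTSeq and the build mm10. The sources used here give neither the annotation release nor the strand setting, so the counts of overlapping genes may hold reads of either strand. Totals at the end of the exon files (5 lines each) were left out. Groups were taken from the treatment labels.

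The experiments were fitted separately in edgeR 4.0.16 (R 4.3.3): filterByExpr, TMM scaling, robust quasi-likelihood F test, Benjamini-Hochberg adjustment over all genes fitted at 0.05. CPM use TMM-scaled library sizes. The standard error of a log2 fold change is its size over the root of F. Likeness between genes and deviations used log2(CPM + 0.5). Exon usage was tested with diffSpliceDGE, and with limma 3.58.1 (voom, diffSplice) as an alternative. Bin coordinates were rebuilt from GENCODE M 21, where bin numbers matched for 89.4% of single genes. All 9 genes and 108 pathway genes matched an identifier. Gene lengths are merged exons of that release.

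The 9 genes and all lists were chosen with earlier results of these data known. The pathway genes named are those called, or the 5 with the smallest p where fewer than 5 were called, and the 3 most abundant in each experiment. The likeness rule takes the 5 genes with the highest Pearson r. The alternatives were DESeq2 1.42.0, DESeq2 size factors in edgeR, limma voom with quality weights, no filter, all 18 libraries in 1 fit, each library left out in turn, and 2 pairs of libraries left out, the pairs chosen after seeing the data. The fits were tested on simulated data with large changes in well counted genes, and with bins given the same set spread in both experiments. That check does not cover genes with low counts or the wide spread of the silencing bins. Floors cover counting error only. Some items are not reported here.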

Additional observations from a re-analysis of the deposited data

Results flagged for a closer look

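In all, 12 values stood apart in their group, each with a gap to the nearest other library that exceeds Dixon's 95% critical value, out of 92 groups of 4 or 5 libraries examined. Chance flags about 1 in 20 groups where values are normal and groups independent. CPM values need not be normal, and these groups share libraries. The 12 of 92 can therefore not be read against that rate.

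Among the 9 genes, Irf9 was at 2.73 CPM in Ptbp1 shRNA library 1, against 0.579 CPM in the next library of its group, and at 3.09 CPM in control library 1 of the overexpression experiment, against 5.27 CPM. In scrambled shRNA library 1, Ddx58 was at 17.9 CPM (next 3.84), Usp18 at 0.416 CPM (next 0.0872) and Ifit1 at 97.7 CPM (next 21.6). These 3 values belong to the library that was highest for 5 of the 9 genes.

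Among the other pathway genes in silencing, Jak1 was at 329 CPM in Ptbp1 shRNA library 4 (next 98.1), Rnf213 at 13.1 CPM in Ptbp1 shRNA library 3 (next 25.8) and Adar at 7.65 CPM in scrambled shRNA library 3 (next 35.2). In overexpression, Jak1 was at 146 CPM in Ptbp1 overexpression library 3 (next 182), Adar at 105 CPM in control library 1 (next 113), Pias1 at 50.9 CPM in control library 4 (next 54.2) and Xaf1 at 3.28 CPM in control library 3 (next 1.62).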

How the results depend on the processing

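Under the 15 alternatives the log2 fold change of the 9 genes in overexpression was above 0 in all 135 cases, and in silencing it was above 0 in 34 of 134. These cases refit the same libraries and are not independent, and the gene counts chose the 9 genes. The tallies describe the fits and are not read as support. The median over the 9 genes was 0.54 in overexpression without Ptbp1 overexpression libraries 1 and 3, and 0.83 to 1.45 with single libraries left out. In silencing it was -0.98 to -0.08 with single libraries left out, 0.18 by limma and -1.12 without the 2 least evenly covered libraries. Counts of called genes moved most in silencing, where edgeR called 0 of all genes, DESeq2 434, limma 69, edgeR without the filter 11 and in 1 fit of all 18 libraries 1775, with 0 to 5 when single libraries were left out. In overexpression edgeR called 7, DESeq2 40, the fit of all libraries 0, and 6 to 9 were called with single libraries left out. Of the other pathway genes in silencing, DESeq2 called 3 and the fit of all libraries 6. As different between the responses, DESeq2 called 5, and leaving out single libraries gave 0 to 2 (Lgals3bp, and H2-D1 without Ptbp1 shRNA library 4). Shares over all genes are not given for these counts. The causes were not tested. No paired analysis was possible because the labels give no replicate numbers that groups share. The depth limits Usp18 most, with 9 counts or fewer in at least 1 library of every group.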
